A study of Nannochloropsis oceanica strain IMET1 with 6 samples.

Results

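The shortest chromatin contacts called within chromosomes of the marine microalga Nannochloropsis oceanica IMET1 were pairs of 1-kb bins whose starts lay 2 or 3 kb apart. They were taken from 3 deposited lists of cis-interactions (contacts between bins of the same chromosome), and bin pairs that stood in all 3 lists were left out. This gave 3328 different bin pairs of the 8318 cis bin pairs in any list, with 253 pairs of the same distances left out because every list held them. The lists were made from Hi-C of strain IMET1 grown in modified f/2 medium with nitrate to the logarithmic phase (nitrogen-replete, C0) and of cells then washed and kept in nitrogen-free f/2 medium for 1 day (N1) or 2 days (N2) of nitrogen deprivation (ND). Light was continuous throughout, but by the labels it was weaker after the transfer than in the culture harvested as C0, so light intensity, the washing and transfer, and ND cannot be told apart. No gene was deleted or added in any group. Each group had 2 libraries, 6 in all, but each list pools both libraries, so only 1 value per group exists, groups could not be tested against each other, and the 95% intervals below (exact Poisson for numbers of pairs and observed over expected, exact binomial for shares) cover counting error only.

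Hi-C crosslinks chromatin, cuts it with a restriction enzyme, joins the cut ends that lie close together in the nucleus and sequences the joined fragments, so that the number of read pairs joining a pair of bins measures how often these bins met. Contacts become rarer as the distance along the DNA grows, and neighbouring stretches of a chromosome touch often simply because they are tied together. Fit-Hi-C therefore compares the contact count of each bin pair with the count expected at that distance, corrected by a bias factor for each bin (1 for an average bin), and lists the pairs whose count is too high. In eukaryotes, contacts over a few kilobases can join both ends of a gene, a promoter and a nearby regulatory element, or neighbouring nucleosome clusters. Chromosome ends carry telomeres and subtelomeric chromatin, which in many organisms is packed differently from the rest of the chromosome. A nuclear gene annotation was not used here, so positions are given as bins of genome version V2 and no gene is named.

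Of these short bin pairs, C0 listed 1762 (interval 1681 to 1846), N1 only 526 (482 to 573) and N2 the most, 1953 (1867 to 2042). They made up 39.5% of the C0 list of cis-interactions, 55.5% of the N1 list and 38.7% of the N2 list. Of the 3328 pairs, 999 stood only in the C0 list, 309 only in the N1 list and 1107 only in the N2 list, while 696 were shared by C0 and N2, 150 by N1 and N2, and 67 by C0 and N1. N1 was the shallowest group. An average pair of bins at these distances was expected to have 22.6 contacts in the C0 list, 10.3 in the N1 list and 14.3 in the N2 list, and a pair of average bins had to reach 52, 33 or 39 contacts before it was listed, which is 2.30, 3.19 or 2.73 times the expected count. With the counts and expected counts of C0 and N2 scaled down to N1, 207 pairs were left at C0 and 1013 at N2 beside the 526 at N1. Such scaling keeps the smaller relative counting error of the deeper lists. The scaled numbers are therefore not those that C0 or N2 would list at the depth of N1.

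The distance of 2 kb held most of the pairs in every group, with 478 of 526 at N1 (90.9%, interval 88.1 to 93.2), 1484 of 1953 at N2 (76.0%, 74.0 to 77.9) and 1252 of 1762 at C0 (71.1%, 68.9 to 73.2). Just inside the longer limit, at 3 kb, there were 510, 48 and 469 pairs, and just outside it, at 4 kb, 382, 35 and 336. The expected count was the same at 2 and 3 kb in each group and fell at 4 kb to 18.9, 7.58 and 11.1 for average bins. When the slope from 4 to 5 kb was instead carried on to the shorter distances, average bins 2 kb apart had an expected count of 31.8 contacts (C0), 15.8 (N1) and 21.2 (N2). Against those expected counts 752, 117 and 965 pairs passed the listing threshold and the share at 2 kb was 40.7%, 58.97% and 54.1%, so the number of pairs rests on the flat expectation in every group, and at C0 3 kb then held more pairs than 2 kb, while 2 kb still held most pairs at N1 and N2.

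Median contact counts stood in the order of the expected counts of average bins and of the counts needed for listing given above. The pairs at C0 had a median of 60 contacts (quartiles 48 and 77, range 24 to 193), those at N1 a median of 32 (26 and 39, range 17 to 76) and those at N2 a median of 52 (40 and 69, range 20 to 241), and their contacts summed to 113534, 17590 and 112323. The 3 ranges overlapped, and the highest count at N1 lay just below the upper quartile at C0. Counts also followed the bias factors: across pairs, Pearson's r between the count and the product of both bias factors was 0.904 (C0), 0.894 (N1) and 0.805 (N2), where the product is itself a part of the expected count. Divided by the expected count, the counts had medians of 4.07 at N1 (range 2.38 to 9.15), 3.14 at N2 (1.84 to 13.8) and 2.64 at C0 (1.67 to 7.42). This order is the order of the listing thresholds given above. The medians differed little between the distances, with 3.18 at 2 kb and 3.02 at 3 kb in the N2 list, 2.64 and 2.63 in that of C0, and 4.06 and 4.08 in that of N1.

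**Figure D1:**
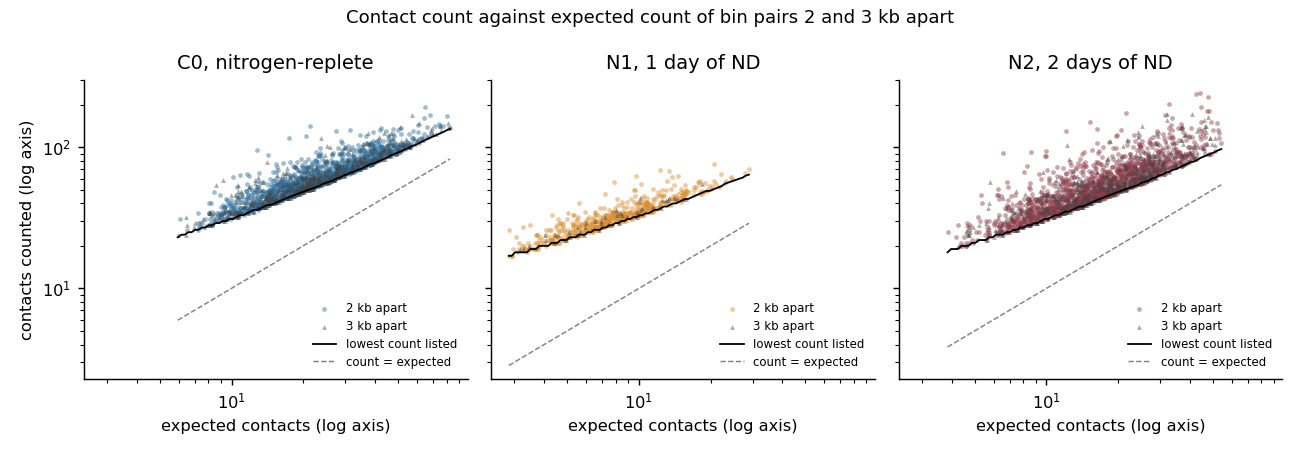
Contact count (vertical, log axis) against expected contact count (horizontal, log axis) for every bin pair 2 kb (circles) or 3 kb (triangles) apart at C0, N1 and N2, with the lowest count that is listed (solid line) and equality (dashed line). In each group most pairs sit close above the listing line, and the N1 pairs occupy lower counts (17 to 76) than those of C0 (24 to 193) and N2 (20 to 241).

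In the 5 bin pairs with the most contacts in each group both bins had bias factors above 1, while in the 5 with the highest observed over expected at least 1 bin had a factor below 1. The bias product is part of the expected count, and the multiple of expectation needed for listing rises as the expected count falls. These rules largely fix that split. Pearson's r between observed over expected and the bias product was -0.664 (C0), -0.764 (N1) and -0.501 (N2). The highest count at C0 was 193 contacts between bins 367001-368000 and 369001-370000 of chromosome 26, with bias factors of 1.64 and 1.75, and 2.98 times the expected count (interval 2.58 to 3.43). The same pair had 45 contacts at N1, 3.25 times expected, and was not listed at N2. At N2 the highest count was 241 contacts between bins 282001-283000 and 284001-285000 of chromosome 7 (5.44 times expected, 4.77 to 6.17). It had 48 contacts and 2.97 times expected at N1 and was not listed at C0. The next pair at N2, bins 263001-264000 and 265001-266000 of chromosome 17, likewise had 237 contacts at N2 (5.56 times expected) and 56 at N1 (3.15 times expected) without being listed at C0. N1's highest count was 76 contacts between bins 306001-307000 and 308001-309000 of chromosome 3 (3.69 times expected, 2.90 to 4.61), a pair that neither other list held. An unlisted pair need not lack contacts, and its count is bounded from above only where both of its bins have a bias factor in that list.

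Relative to expectation, a single pair on chromosome 14 led at both C0 and N2. Bins 667001-668000 and 669001-670000 had 95 contacts at C0, 7.42 times expected (6.01 to 9.08), and 91 contacts at N2, 13.8 times expected (11.1 to 16.9). Their counts were nearly equal, while their expected counts were 12.8 at C0 and 6.59 at N2. At C0 the next 2 pairs were the arms on either side of bin 496001-497000 of chromosome 9, which had 117 contacts with the bin 2 kb to its left (6.69 times expected) and 142 with the bin 2 kb to its right (6.64 times). The left arm was also listed at N2, with 94 contacts and 9.42 times expected. At N2 the pair after the leading one joined bins 331001-332000 and 333001-334000 of chromosome 3, with 130 contacts (10.8 times expected) against 120 at C0 (5.85 times). The leading pair at N1 joined bins 1044001-1045000 and 1046001-1047000 of chromosome 13 with only 26 contacts against 2.84 expected (9.15 times, 5.98 to 13.4), and of the 5 leading pairs at N1 the only one listed elsewhere was on chromosome 26, bins 8001-9000 and 10001-11000, with 33 contacts at N1 (7.62 times expected) and 49 at C0 (4.25 times).

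Pairs that were adjacent in the sense of starting 1 bin apart at the same distance were few. Such runs held 96 pairs at N2 (4.92%, interval 4.00 to 5.97), 44 at C0 (2.50%, 1.82 to 3.34) and 8 at N1 (1.52%, 0.659 to 2.97). Most runs held only 2 pairs, namely 34 at N2, 15 at C0 and 2 at N1, and longer ones numbered 9, 4 and 1. The longest run had 5 pairs and lay at C0 on chromosome 7, from 1323001 to 1330000, where consecutive 2-kb pairs had 95, 67, 101, 70 and 137 contacts and 2.39 to 3.45 times the expected count. It ended within 2 kb of the highest listed position of that chromosome, 1332000. N1's longest run had 4 pairs, on chromosome 26 from 244001 to 250000, with 58, 50, 36 and 41 contacts. N2's longest run also had 4 pairs, on chromosome 23 from 380001 to 386000, with 90, 60, 66 and 85 contacts.

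One run of 3 pairs was present at both C0 and N2. On chromosome 3, from 663001 to 668000, the consecutive 2-kb pairs had 99, 74 and 71 contacts at C0 and 70, 40 and 37 at N2. The left end of chromosome 7 held another run of 3 at C0, of 3-kb pairs from 1 to 6000, with 117, 92 and 47 contacts. Of the 8 runs of 3 at N2, those on chromosomes 1, 2, 5, 7 and 16 lay at 513001-518000, 596001-601000, 1052001-1057000, 352001-357000 and 712001-717000, and chromosome 3 held the other 3. In the run on chromosome 5 the middle pair was the lowest, with counts of 76, 44 and 90, as on chromosome 1 with 104, 33 and 83, whereas the run on chromosome 7 was even at 59, 62 and 64.

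The common arrangement was another one, in which pairs met at a shared bin. At C0, 909 of 1762 pairs shared a bin with another short pair (51.6%, interval 49.2 to 53.9), at N1 93 of 526 (17.7%, 14.5 to 21.2) and at N2 1000 of 1953 (51.2%, 49.0 to 53.4). For 2-kb pairs this happens when starts lie 2 bins apart, so that the right bin of the first is the left bin of the second, and that offset was found 255 times at N2, 214 times at C0 and 30 times at N1. At offsets of 20 to 59 bins, which serve as the local reference, the mean number of couples was 72.3 at N2 (lowest 60, highest 90), 51.5 at C0 (39 to 71) and 7.05 at N1 (3 to 12). The offset that shares a bin was therefore 3.53, 4.16 and 4.26 times the reference. An offset of 1 bin, which makes a run, was found 50, 17 and 5 times, below the lowest reference offset at C0 and N2 and within the reference range at N1. Bias factors of both bins lay between 0.8 and its reciprocal in 271 pairs of C0, where the offset of 1 bin was 0.952 times its reference. For the 289 such pairs of N2 it was 0.533 times. Only 0.738% and 0.692% of these pairs lay in runs, too few to show whether the shortfall remained. The sharing of bins fell there to 23.6% (C0), 5.80% (N1) and 22.5% (N2). Relative to their own reference, which was small in so few pairs, 2-kb pairs starting 2 bins apart were 11.4 times as frequent at C0 and 9.07 times at N2 within that range of bias factors, while none were found among the 69 pairs of N1. The offsets and the shared bins were examined after values of these lists had been seen.

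**Figure D2:**
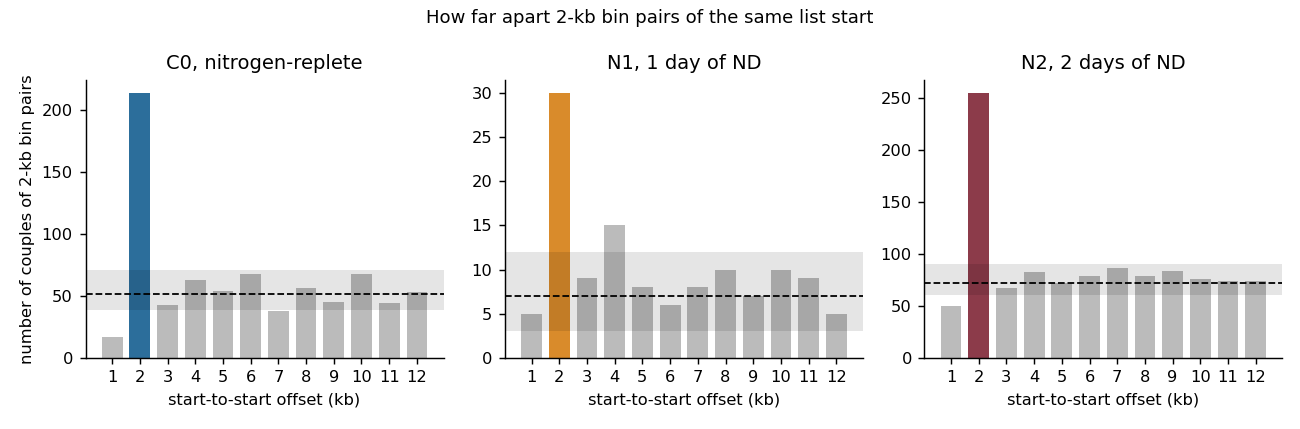
Number of couples of 2-kb bin pairs (vertical) whose starts lie 1 to 12 kb apart (horizontal) in the lists of C0, N1 and N2, with the mean (dashed line) and the lowest and highest number (grey band) at offsets of 20 to 59 kb. The coloured bar at 2 kb, where the pairs share a bin, holds 214, 30 and 255 couples, and the bar at 1 kb holds 17, 5 and 50.

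The 3-kb pairs also met at shared bins, at their own spacing. Starts 3 bins apart, which share a bin, were found 62 times at C0 and 47 times at N2. Their references were 6.55 (2 to 11) and 7.78 (4 to 13). Starts 1 bin apart were found 8 times at C0, within the reference range, and 3 times at N2, just below it. When a 2-kb pair was set beside a 3-kb pair, the offsets that share a bin were again the frequent ones. At C0 a 3-kb pair started 3 bins before, 1 bin before, level with and 2 bins after a 2-kb pair 114, 83, 90 and 97 times, against a reference of 18.3 (11 to 26). At N2 the same offsets held 95, 99, 94 and 111 couples against 23.7 (14 to 35). The offsets between them that share no bin, 2 bins before and 1 bin after, held 17 and 15 couples at C0 and 15 and 16 at N2. N1 had only 48 pairs at 3 kb, and its 4 offsets that share a bin held 6, 8, 7 and 4 couples.

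Chains of same-distance pairs linked end to end were short. At 2 kb, 395 pairs at C0 lay in 181 chains (31.5% of the 2-kb pairs), 58 at N1 in 28 chains (12.1%) and 474 at N2 in 219 chains (31.9%). A chain of 4 pairs spanned 749001 to 758000 of chromosome 19 at C0, with 84, 95, 91 and 73 contacts. The longest at N2 had 5 pairs, as on chromosome 6 from 1311001 to 1322000, with 58, 40, 42, 48 and 33 contacts. At N1 no chain was longer than 3 pairs, as on chromosome 2 from 1162001 to 1169000, with 47, 31 and 19 contacts.

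Some bins were the meeting point of several short contacts. A bin can take part in 4 pairs at these distances, with the bins 2 and 3 kb to its left and right. At C0, 471 of the 2963 bins used were in more than 1 short pair (15.9%), at N1 46 of 1001 (4.60%) and at N2 516 of 3302 (15.6%). All 4 pairs were among the pairs described here for 9 bins at C0, none at N1 and 9 at N2. Pairs left out because all 3 lists held them do not count, so further bins can have had all 4 pairs listed. The bins that were in more than 1 short pair at both C0 and N2 numbered 140, which is 29.7% of those at C0 and 27.1% of those at N2, whereas the bins in any short pair numbered 1428 in both, 48.2% of those at C0 and 43.2% of those at N2.

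Counted in the same way, only 2 bins had all 4 short pairs at both C0 and N2. Bin 780001-781000 of chromosome 6 had, from left to right, 55, 76, 63 and 35 contacts at C0 (3.22, 4.94, 5.33 and 3.22 times expected) and 49, 86, 57 and 36 at N2 (3.52, 8.67, 8.33 and 4.61 times). Bin 627001-628000 of chromosome 9 had 45, 66, 59 and 69 contacts at C0 (2.47, 5.07, 3.92 and 3.28 times expected) and 47, 46, 41 and 67 at N2 (4.62, 7.36, 4.79 and 6.94 times). Every arm of both bins stood higher above expectation at N2 than at C0, as did 668 of all 696 short pairs shared by these lists. The 2-kb arms of the chromosome 6 bin had more contacts than its 3-kb arms in both lists. Neither bin had a listed short pair at N1. On chromosome 9 the bin 496001-497000 described above had all 4 pairs at C0, with 54, 117, 142 and 51 contacts, and 3 of them at N2.

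Bins with several short pairs also had more listed partners at other distances. At C0 the 81 bins with 3 or 4 short pairs had a mean of 1.94 partners at 4 to 10 kb, against 0.897 for the 390 bins with 2 and 0.384 for the 2492 bins with 1. At N2 these means were 2.05, 0.751 and 0.367. Partners beyond 10 kb on the same chromosome were listed for 69.1% of the bins with 3 or 4 short pairs at C0 and for 14.7% of those with 1, and at N2 for 75.9% and 18.02%. Partners on other chromosomes were listed for 28.4% and 5.38% at C0 and for 16.5% and 3.09% at N2. The median bias factor of these bins was 0.821 against 1.03 at C0 and 1.16 against 1.06 at N2, so it was lower in the first group and higher in the second, and its part in the counts of partners was not tested. At N1 only 5 bins had 3 short pairs, with a median bias factor of 0.580.

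Along the chromosomes, the short contacts of C0 and N1 were dense at the ends and those of N2 were not. Within 20 kb of an end lay 174 pairs of C0 (9.88%, interval 8.52 to 11.4), 50 of N1 (9.51%, 7.14 to 12.3) and 82 of N2 (4.20%, 3.35 to 5.19), in regions that make up 3.87% of the listed genome. Chromosome ends were taken as the first base and the highest position in any list. In the outermost 10 kb, C0 had 197 pairs per Mb (163 to 236), N1 had 53.3 (36.5 to 75.3) and N2 had 63.3 (44.8 to 86.9), and more than 100 kb from the ends the densities were 55.6 (52.7 to 58.6), 16.9 (15.3 to 18.6) and 66.1 (63.0 to 69.4). From 10 to 20 kb the densities were 93.3, 30 and 73.3 per Mb. From 20 to 50 kb they fell below the inner level in every group, to 41.7 (32.8 to 52.2), 9.44 (5.50 to 15.1) and 38.9 (30.3 to 49.1).

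**Figure D3:**
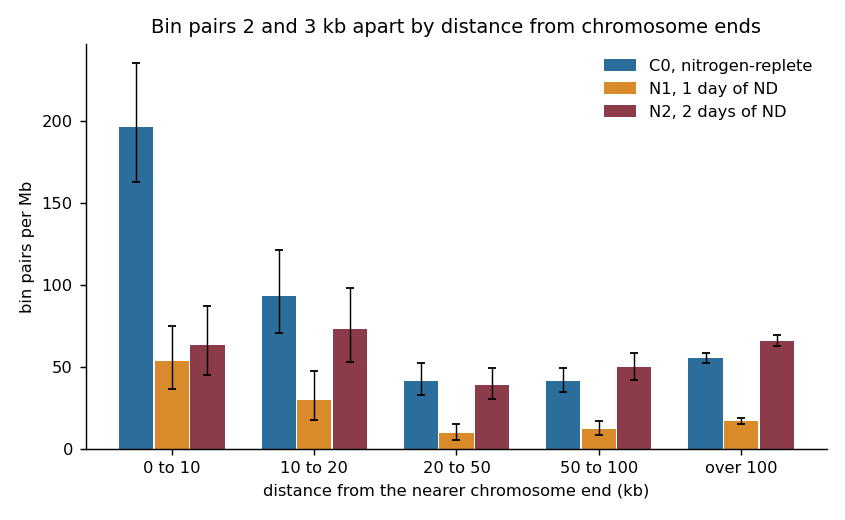
Number of bin pairs 2 or 3 kb apart per Mb (vertical) by distance from the nearer chromosome end (horizontal, kb) at C0, N1 and N2, with exact Poisson 95% intervals for counting error. The C0 bar falls from 197 per Mb in the outermost 10 kb to 55.6 in the interior, the N1 bar from 53.3 to 16.9, and the N2 bars at these places are 63.3 and 66.1.

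The density at C0 was spread over many ends. Of 60 chromosome ends, 50 held a short pair at C0, 33 at N1 and 40 at N2. At C0, 15 ends held 5 or more, against none at N1 or N2. The left end of chromosome 18 led with 11 pairs, followed by the right end of chromosome 20 with 10 and the right end of chromosome 7 with 9. Left and right ends held much the same, 88 and 86 pairs in the C0 list, 24 and 26 in the N1 list, and 41 and 41 in the N2 list. Of the 174 pairs near ends at C0, 53 were also listed at N2 (30.5%), and these made up 64.6% of the 82 at N2. Of the 1107 pairs in the N2 list alone, 22 lay near an end (1.99%), while of the 999 in the C0 list alone 108 did (10.8%).

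With both groups scaled to N1, 18.4% of the pairs left at C0 and 4.84% of those left at N2 lay within 20 kb of an end. Among pairs whose bins had bias factors between 0.8 and its reciprocal the shares were 12.9% and 3.46%, with 7.25% at N1. Pairs near the ends had a median bias product of 0.953 at C0, 0.633 at N1 and 0.971 at N2, against 0.980, 0.774 and 1.16 elsewhere, and a median observed over expected of 2.80, 4.46 and 3.38 against 2.61, 4.05 and 3.13 elsewhere. A pair with a lower bias product had to stand higher above expectation to be listed, so the selection favours higher medians near the ends. Its part in these medians was not tested. The next longer cis-interactions, 4 to 10 kb, had 11.4% near ends at C0 (9.81 to 13.2) and 5.27% at N2 (4.16 to 6.59), so the contrast of these groups was not particular to 2 and 3 kb. At N1, 3 of 126 such pairs lay near an end (2.38%, 0.494 to 6.80).

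Of the 9 bins with all 4 short contacts at C0, 4 lay within 20 kb of a chromosome end. Since 4 is the most a bin can have, their number at N2 could only be the same or lower, and it was lower for bins inside chromosomes as well, such as bin 915001-916000 of chromosome 3, with 4 at C0 and 3 at N2. Bin 18001-19000 of chromosome 18 had 61, 110, 124 and 68 contacts at C0 and, at N2, 41 and 56 contacts on its 2-kb arms with the 3-kb arms unlisted. Bin 832001-833000 of chromosome 20, 10 to 11 kb from the right end, had 79, 95, 102 and 53 contacts at C0 and 38 and 35 on the 2-kb arms at N2. Relative to expectation, the 2-kb arms of the chromosome 20 bin had 3.09 and 3.31 times the expected count at C0 and 3.33 and 3.42 times at N2. The listed arms of that bin were thus about as far above expectation at N2 as at C0, although their counts were lower. Bin 15001-16000 of chromosome 28 had 41, 48, 35 and 49 contacts at C0, and 3 of its arms were listed at N2, with 40, 29 and 27 contacts. Bin 1326001-1327000 of chromosome 7, part of the run of 5 described above, had 64, 67, 70 and 76 contacts at C0, and 1 arm was listed at N2, with 40 contacts.

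Each chromosome was also cut into 10 equal segments. At C0 the outermost segments held 10.4% on the left and 9.99% on the right, and their neighbours 6.87% and 8.85%. At N2 the outermost segments held 7.42% and 8.29% and the neighbours 7.94% and 7.78%. Counted from the left, the richest at N2 was segment 4 with 12.7% (11.3 to 14.3). This interval overlapped those of segments 5 to 8. The richest at C0 was segment 6 with 11.8% (10.3 to 13.4), an interval that overlapped those of both outermost segments. Segments 4 to 8 together held 54.9% at C0 (52.5 to 57.2) and 59.6% at N2 (57.4 to 61.8). Those of N1 held 54.2% (49.8 to 58.5). The segments of N1 ranged from 7.22% to 12.4%, and these extremes had intervals that overlapped.

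Windows of 100 kb held a mean of 5.47 pairs at C0, 1.63 at N1 and 6.07 at N2, and 9, 78 and 7 of the 322 windows held none. The richest window at C0 was the first 100 kb of chromosome 18, with 22 pairs over 31 bins and 36 to 124 contacts a pair. N1 had 3 pairs there and N2 had 8. The first 100 kb of chromosome 30 held 15 pairs at C0, none at N1 and 4 at N2, and the window from 800001 to 900000 of chromosome 6 held 16, 2 and 7. The window from 500001 to 600000 of chromosome 14 led at both N1 and N2, with 9 and 18 pairs against 5 at C0. At N2 it was followed by windows of chromosomes 9, 11 and 15 with 15 pairs each, starting at 900001, 300001 and 300001, where C0 had 13, 9 and 10 pairs and N1 had 4, 2 and 1. All these windows were picked as the richest of 322 in a group, so lower numbers in another group are no test of a difference.

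Chromosome 26 led at C0 with 73.8 pairs per Mb (54.4 to 97.9) and chromosome 22 was lowest with 34.0 (21.8 to 50.6). Both were picked as the extremes of 30 chromosomes, so their intervals are no test of a difference. Chromosome 26 led at N1 as well, with 36.9 per Mb (23.7 to 54.9) from 24 pairs, whereas chromosome 19 had only 3 pairs at N1, 3.53 per Mb (0.727 to 10.3). At N2 chromosome 3 led with 81.7 per Mb, next to chromosome 11 with 81.3 and chromosome 14 with 79.9, which cannot be ordered, and chromosome 20 was lowest with 42.7. Chromosome 14 held 47.0 pairs per Mb at C0 (34.5 to 62.4) and 79.9 at N2 (63.4 to 99.5). Chromosome 20 held 56.9 at C0 (42.0 to 75.5) and 42.7 at N2 (29.9 to 59.1), intervals that overlap. The genome-wide densities were 56.9 at C0 and 63.1 at N2. Both chromosomes stood near the extremes at N2, so these intervals are no test of a change. The leading chromosome changed under several alternatives, given with the limits of the processing.

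**Figure D4:**
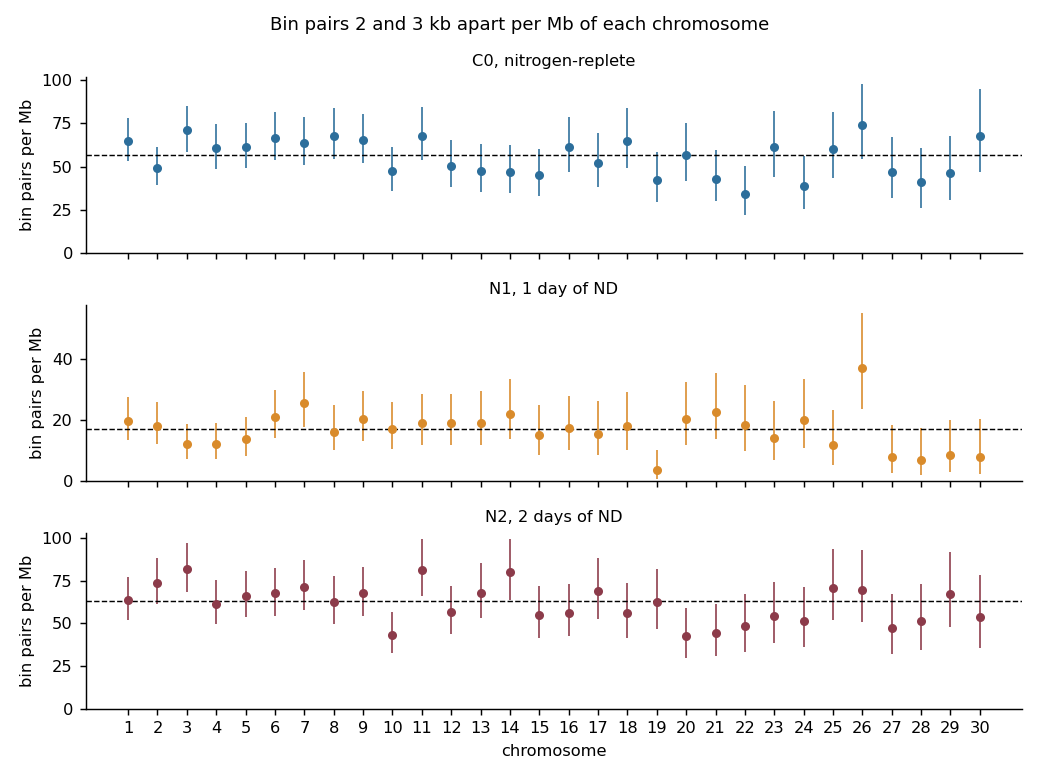
Bin pairs 2 or 3 kb apart per Mb of listed length (vertical) on each of 30 chromosomes (horizontal) at C0, N1 and N2, with exact Poisson 95% intervals and the genome-wide density (dashed line). Chromosome 26 stands highest at C0 (73.8) and N1 (36.9), chromosome 19 is lowest at N1 (3.53), and at N2 chromosomes 3, 11 and 14 lie close together at the top.

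The pairs shared by C0 and N2 show how the same short contacts compared before and after 2 days of ND. The 696 shared pairs were 39.5% of the pairs at C0 and 35.6% of those at N2. Their median count was 69 at C0 and 50 at N2, and their median observed over expected 2.59 and 3.60. The ratio of observed over expected, N2 over C0, had a median of 1.38 (range 0.848 to 2.93) and was above 1 for 668 of the 696. It passed 1.5-fold higher for 233 pairs (33.5%), where 42.6% of all 1588 cis pairs listed in both groups did, and 1.5-fold lower for none, where the share was 0.063%. The median bias product of the shared pairs was 1.16 at C0 and 0.971 at N2, and the expected count for average bins at N2 was 0.632 times that at C0. Since a pair at N2 had to stand higher above expectation to be listed, the selection of shared pairs favours ratios above 1, and its part in the median was not tested.

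**Figure D5:**
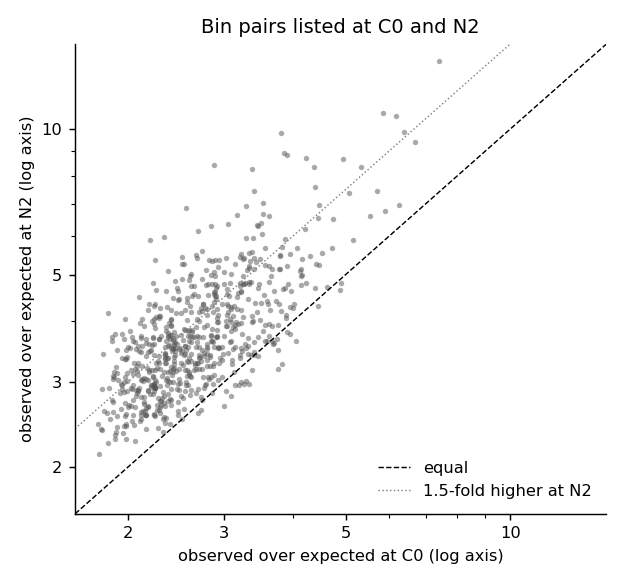
Observed over expected contacts at N2 (vertical, log axis) against C0 (horizontal, log axis) for the 696 bin pairs 2 or 3 kb apart listed in both groups, with lines for equality (dashed) and for 1.5-fold higher at N2 (dotted). Most points, 668, lie above equality and 233 lie above the dotted line.

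The largest ratio of N2 over C0 was at bins 479001-480000 and 482001-483000 of chromosome 6, which had 54 contacts at C0 and 103 at N2, 2.87 and 8.41 times expected, a ratio of 2.93 (interval 2.09 to 4.16). Bins 644001-645000 and 646001-647000 of chromosome 11 had 110 contacts at C0 and 150 at N2, 3.80 and 9.84 times expected, a ratio of 2.59 (2.01 to 3.34). In these pairs the count itself was higher at N2 although N2 was the shallower group. At the other end, bins 916001-917000 and 918001-919000 of chromosome 4 had 63 and 29 contacts, 3.76 and 3.19 times expected, and their ratio of 0.848 had an interval from 0.527 to 1.34 that includes 1. The intervals of all 5 lowest ratios included 1. These pairs were picked as the extremes of the shared pairs, and the higher threshold at N2 keeps low ratios out. Their intervals are therefore no test of a change in either direction.

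Pairs shared with N1 were fewer. The 67 pairs shared by C0 and N1 were 3.80% of those at C0 and 12.7% of those at N1, with median counts of 60 and 29. All 67 had a higher observed over expected at N1, with a median ratio of 1.70 (range 1.05 to 2.62), and 51 passed 1.5-fold (76.1%), where 70.2% of all 373 cis pairs listed in both did. Bins 963001-964000 and 965001-966000 of chromosome 2 had the highest ratio, 2.62 (1.65 to 4.10), from 55 contacts at C0 and 33 at N1. The threshold at N1 lay above that at C0, so few pairs with a ratio below 1 could be listed in both. When a pair was also counted as found if both bins lay within 1 bin of a pair in the other list, 132 pairs of C0 were found at N1, which is 7.49%.

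The 150 pairs shared by N1 and N2 were 28.5% of those at N1 and 7.68% of those at N2. The median ratio, N2 over N1, was 0.833 (range 0.467 to 2.11). It passed 1.5-fold higher for 8 pairs (5.33%, against 5.31% of all 452 cis pairs in both lists) and 1.5-fold lower for 18 (12.0%, against 14.2%), so both shares lay near those of all cis pairs. A pair at N1 had to stand higher above expectation than at N2 to be listed, so the selection favours ratios below 1. Its part in the median ratio was not tested. Bins 623001-624000 and 625001-626000 of chromosome 4 had the highest ratio, with 29 contacts at N1 and 176 at N2, 3.86 and 8.14 times expected, a ratio of 2.11 (1.42 to 3.24). The leading pairs of N2 by count, on chromosomes 7 and 17, came next with ratios of 1.83 (1.34 to 2.55) and 1.77 (1.31 to 2.41). The lowest ratio was at bins 1133001-1134000 and 1135001-1136000 of chromosome 2, with 24 and 42 contacts, 5.40 and 2.52 times expected, a ratio of 0.467 (0.276 to 0.805). The comparisons with C0 and with N1 share their groups and are not independent. The pairs named in the comparisons with N1 were likewise picked by their ratios, so their intervals are no test of a change.

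A pair listed in 1 group and not in another could be compared only with the highest count that would have stayed unlisted, where both of its bins had a bias factor from another pair of that list. Of the 1066 pairs of C0 not listed at N2, 88 had such bins, and 16 of them stood above the highest value possible at N2, 1 of them with its whole interval. Of the 1257 pairs of N2 not listed at C0, 116 had such bins, and all 116 stood above the highest value possible at C0, 82 of them with their whole interval. For the pairs of N1 not listed at C0 this was 32 of 32, with the whole interval for 30. The thresholds, lowest at C0, largely fix these counts, and most unlisted pairs could not be bounded in this way. A bin known to be without a bias factor at N2 was in 52 of the 1066 pairs of C0 and in 74 of 376 pairs of N1. At C0 such a bin was in 16 of the 1257 pairs of N2 and in 19 of 459 pairs of N1. The absence of these pairs from the other list says nothing about their contacts. The highest excess over the limit was 2.70-fold for pairs of N2 not listed at C0 and 2.50-fold for pairs of N1 not listed at C0. Among the pairs that stood in 1 list only, taking the smaller excess where both other lists gave a limit, bins 1408001-1409000 and 1410001-1411000 of chromosome 4 led with 24 contacts at N1, 6.41 times expected (lower bound 4.11), where N2 could have had at most 40 contacts or 2.58 times expected. Next, bins 303001-304000 and 305001-306000 of chromosome 24 had 31 contacts at N1, 6.78 times expected (lower bound 4.60), where C0 could have had at most 31 contacts or 2.94 times expected. Of such pairs at N2, bins 967001-968000 and 970001-971000 of chromosome 8 stood farthest above the limit. They had 44 contacts at N2, 6.69 times expected (lower bound 4.86), and at C0 at most 31 contacts or 3.05 times expected.

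The 253 pairs left out because all 3 lists held them had median counts of 79 at C0, 31 at N1 and 66 at N2, and observed over expected of 2.76, 4.48 and 4.20. They stood above the medians of the pairs described here in each group, 2.64, 4.07 and 3.14, and 6.32% of them lay within 20 kb of an end. To stand in all 3 lists a pair had to pass every listing threshold, so the selection favours these higher medians. Its part in them was not tested.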

How the data were processed

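Chromatin of 2 Hi-C libraries for each of C0, N1 and N2 was cut with MboI and sequenced on an Illumina HiSeq. By the study's methods, reads were filtered with Trimmomatic 0.39 and mapped to genome version V2 with ICE, replicates were pooled, and interactions called with Fit-Hi-C 2.0.8 were kept above 2 contacts with p and q below 0.01. The submitters' processing notes also name HiC-Pro and edgeR. The authors deposited for each bin pair a raw contact count, not scaled for depth, with a p-value and a q-value from Fit-Hi-C. They also deposited a score, the bias factor of each bin, between 0.500 and 2.00, with -1 for a bin without one. The methods name 10-kb bins and a minimum cis distance of 4000 bp, while the lists hold 1-kb bins from 2 kb on, so the settings behind these lists are not given in the sources used here. The methods and labels differ on the number of replicates, and nothing in the lists separates them. Total read depth is not held by the lists, and the expected count of average bins stands in for it.

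The expected count of a pair was solved from its count and its deposited p-value, taking the latter as the Poisson probability of that count or more. Divided by both bias factors it varied by at most 0.00184% among the pairs of a group. The highest unlisted count came from the highest listed p. Ends were 20 kb wide, windows 100 kb, and ratios were called past 1.5-fold. Named pairs were the 5 with the highest count and the 5 with the highest observed over expected per group, the 3 longest runs and richest windows per group (ties included), the extreme chromosomes, the 5 extreme ratios each way and the 5 pairs of a single list farthest above the limit in the other groups (the smaller excess where both gave one). From these the text gives a selection. Bins with 4 short pairs, chains, left-out pairs and further chromosomes were chosen after their values were seen. The bin pairs and measures were chosen with earlier results of these data known. Python 3.11.15, NumPy 2.4.6, pandas 2.3.3 and SciPy 1.17.1 were used, and the calculations were tested on simulated data. Alternatives changed the q threshold, the pairs left out, the expected count, depth, bias range, run definition, end width, chromosomes and matching. The authors' lists of shared interactions hold only names of bin pairs and were not used.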

Additional observations from a re-analysis of the deposited data

How the results depend on the processing

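Of 189 results under an alternative, start offsets apart, 92 stayed within the spread set for them and 97 moved. The values that moved follow, in the order C0, N1, N2 where 3 are given. With q below 0.001, N1 held 340 pairs, C0 and N1 shared 37 and N1 and N2 88, the median observed over expected was 2.78, 4.26 and 3.28, the shared-bin share was 45.8% at C0 and 46.2% at N2, and chromosome 14 led at N2 with 68.9 per Mb. With pairs of all 3 lists kept in, 73.3% lay at 2 kb at C0, chromosome 3 led there with 82.3 per Mb, the shared-bin share was 58.5%, 30.6% and 58.4%, the median observed over expected was 4.15 at N1 and 3.23 at N2, and C0 and N1 shared 320 pairs and N1 and N2 403. With the expected count continued below 4 kb, there were 752, 117 and 965 pairs, 40.7%, 58.97% and 54.1% at 2 kb, medians of 2.51, 3.69 and 2.83, longest runs of 3, 2 and 2, 1.04% in runs at N2, 14.2% and 13.7% near ends at C0 and N1, shared-bin shares of 42.3%, 22.2% and 44.9%, and leading densities of 41.5 and 15.4 on chromosome 26 and 47.0 on chromosome 25. C0 and N1 then shared 15 pairs, C0 and N2 256, and N1 and N2 21.

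Scaled to N1, C0 held 207 pairs with 74.9% at 2 kb, a longest run of 2 and a median of 3.42. It had 18.4% near ends, a shared-bin share of 32.9% and chromosome 30 leading with 13.9 per Mb. N2 then held 1013 pairs with 2.37% in runs, a longest run of 2, a median of 3.55, a shared-bin share of 38.8% and chromosome 14 leading with 51.9. C0 and N1 shared 10 pairs, C0 and N2 124, and N1 and N2 99. With bias factors between 0.8 and its reciprocal there were 271, 69 and 289 pairs, longest runs of 2, 2 and 2, shared-bin shares of 23.6%, 5.80% and 22.5%, and leading densities of 17.9 on chromosome 18, 6.15 on chromosome 26 and 18.8 on chromosome 19. The share at 2 kb was 74.2% at C0 and 80.3% at N2, that in runs 0.738% and 0.692%, the median 2.56 at C0 and 3.61 at N1, the share near ends 12.9% at C0, and C0 and N1 shared 1 pair, C0 and N2 42, and N1 and N2 9.

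Runs with starts up to 2 bins apart, which adds pairs that share a bin, held 25.0%, 11.6% and 27.8%, and runs over both distances 20.3%, 7.22% and 23.8%, with a longest of 8 at C0. Ends of 10 kb held 6.70%, 6.08% and 1.95%, and ends of 50 kb 14.1%, 12.7% and 7.78%. By plain number chromosome 3 led at C0 with 118 pairs and chromosome 7 at N1 with 34. With runs counted once, chromosome 11 led at N2 with 80.5 per Mb. Within 1 bin, 132 pairs of C0 were found at N1. Of 24 start offsets of 2-kb pairs under an alternative, 12 moved, as multiples of their reference. Starts 1 bin apart at N1, at first below the mean of the reference but within its range, were 1.29 with q below 0.001. They were 13.3 both with the continued expected count and in the bias range. These N1 multiples rest on very few pairs and show no direction. In runs lay 1.76% of 340 pairs with q below 0.001, 1.71% of 117 with the continued expected count and 2.90% of 69 in the bias range. Starts 1 bin apart were 0.323 at N2 with the continued expected count and 0.952 at C0 in the bias range. Starts 2 bins apart were 7.42 at N1 with q below 0.001, 11.3, 53.3 and 5.59 with the continued expected count, and 11.4, 0 and 9.07 in the bias range. Those of N1 rest on the same few pairs. Leaving out the chromosome with the most pairs, or the leading window of chromosome 18, moved none of the 27 results so tried. Apart from alternatives that change a value by their construction, the cause was not tested. No paired analysis was possible because each list sums its 2 libraries, and for the same reason no replicate could be left out. Depth limits N1 most, where a pair of average bins was listed only from 33 contacts.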
